A study of Mus musculus with 6 samples.

Results

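The SLC25 family of mitochondrial carriers was examined in wound tissues of db/db mice. The members were all protein-coding genes of the expression table whose mouse symbol is Slc25a with a number, together with Ucp2 and Ucp3, the uncoupling proteins that belong to the same family. This gave 49 of 33184 genes. A mean of at least 0.5 FPKM (fragments per kilobase of gene length relative to all mapped fragments) was required for testing, and 43 of the 49 carriers and 16005 of all genes reached it.

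RNA was sequenced from 6 libraries of wounded skin, 3 labelled NC and 3 labelled SFRP2-siRNA. All mice carried the dbdb genotype, a mutation of the leptin receptor that causes obesity and diabetes, and all received a round wound of 6 mm through epidermis and dermis. The NC group received NC-siRNA, a control siRNA, and the other group received SFRP2-siRNA, both given as injections at the wound margin at dpi1 (dpi, days post-injury). Tissue was collected at dpi4, while the titles carry day 3. The age of the mice was not given, and the labels do not say that the libraries came from separate animals, so p-values measure the spread between these libraries, which may be technical. In the titles the treated samples bear the numbers siRNA-1 to siRNA-3, and the supplement of the study names 3 siRNA sequences in the same way. Whether each treated library received its own sequence is stated in neither source.

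Carriers of this family sit in the inner mitochondrial membrane, where each moves particular solutes between the cytosol and the matrix: ADP against ATP, phosphate, citrate, amino acids, acylcarnitines, cofactors or iron. A few members lie elsewhere, Slc25a17 in the peroxisome and Slc25a46 in the outer mitochondrial membrane. Ucp1, the uncoupling protein of brown fat, belongs to the same branch as Ucp2 and Ucp3 but was outside the rule and is used here only beside the members.

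Promoter sequences are shown for 4 carriers that the comparison turned on: the 3 with the smallest p among the lower ones that had an entry in the sequence table (Slc25a42, Slc25a1, Slc25a20), and Slc25a24, the only one higher at an unadjusted p under 0.05. Each is the 250 bases before the gene start in RefSeq, build GRCm38.p6, written 5′ to 3′ on the strand of the gene. Capitals mark GC boxes (GGGCGG or, on the other strand, CCGCCC) and CCAAT boxes (CCAAT or ATTGG). Slc25a42 lies at chr8:70212282-70212531 on the minus strand, Slc25a1 at chr16:17928220-17928469 on the minus strand, Slc25a20 at chr9:108661886-108662135 on the plus strand and Slc25a24 at chr3:109122899-109123148 on the plus strand.
Slc25a42: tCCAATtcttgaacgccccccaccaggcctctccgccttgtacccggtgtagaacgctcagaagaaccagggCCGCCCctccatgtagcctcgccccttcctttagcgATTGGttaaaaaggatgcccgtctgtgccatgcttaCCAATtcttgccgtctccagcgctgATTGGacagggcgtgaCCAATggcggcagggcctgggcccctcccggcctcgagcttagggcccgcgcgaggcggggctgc
Slc25a1: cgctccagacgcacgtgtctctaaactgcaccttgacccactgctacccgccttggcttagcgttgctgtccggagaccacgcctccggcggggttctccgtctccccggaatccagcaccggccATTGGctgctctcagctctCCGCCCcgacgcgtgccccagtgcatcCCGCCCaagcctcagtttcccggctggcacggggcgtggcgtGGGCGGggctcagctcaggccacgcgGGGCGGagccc
Slc25a20: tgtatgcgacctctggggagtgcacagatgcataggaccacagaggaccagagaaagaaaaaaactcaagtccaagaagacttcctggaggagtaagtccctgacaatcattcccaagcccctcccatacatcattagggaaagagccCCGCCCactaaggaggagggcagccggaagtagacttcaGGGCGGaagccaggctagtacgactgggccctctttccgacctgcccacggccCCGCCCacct
Slc25a24: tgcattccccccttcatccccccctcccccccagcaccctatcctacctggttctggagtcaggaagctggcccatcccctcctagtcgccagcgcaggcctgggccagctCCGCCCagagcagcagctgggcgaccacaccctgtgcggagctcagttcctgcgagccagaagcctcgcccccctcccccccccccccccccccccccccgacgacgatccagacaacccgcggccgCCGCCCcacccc

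These promoters differed in their boxes. The window of Slc25a42 held 5 CCAAT boxes and 1 GC box, and that of Slc25a1 held 1 CCAAT box and 4 GC boxes. Those of Slc25a20 and Slc25a24 held no CCAAT box, with 3 and 2 GC boxes. The RefSeq table had 48 windows for 38 of the 49 carriers, since some genes have several starts. On either strand, a GC box was present in 33 of the 48 windows (68.8%), against 32.7% of all 32851 windows of this length, and a CCAAT box in 21 of the 48 (43.8%), against 33.8%. The E-box CACGTG was present in 8 of the 48 (16.7%), from 7 carriers (Slc25a1, Slc25a13, Slc25a14, Slc25a15, Slc25a31, Slc25a33 and Slc25a36), against 6.02% of all windows. TCAAGGTCA, the element of estrogen-related receptors, the site of NRF1 and the direct-repeat element of PPAR receptors, each searched as 1 fixed run of letters, were in 0 of the 48 windows, against 0.387%, 0.782% and 0.0335% of all windows. Overlapping motifs were each counted, and a match of letters is only a description of the window.

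The siRNA target was checked first. Sfrp2, which encodes a secreted modulator of Wnt signalling, had 11.6, 40.6 and 14.1 FPKM in NC 1, 2 and 3 and 50.6, 54.6 and 55.2 FPKM in SFRP2-siRNA 1, 2 and 3. The transcript was higher where the label states the siRNA (log2 fold change 1.45, SE 0.43, adjusted p = 0.518), so directions refer to the label and not to reduced Sfrp2 RNA. For protein, the study reported less SFRP2 by immunofluorescence staining in wounds of diabetic mice given the siRNAs, at dpi3. Libraries rested on 42.9 to 47.1 M reads (M, the prefix mega). The mitochondrially encoded genes took 35.8%, 22.2% and 17.4% of all FPKM in NC 1, 2 and 3, against 16.6%, 11.8% and 13.8% in the group labelled SFRP2-siRNA 1, 2 and 3, with NC 1 far above the rest. Markers of keratinocytes and fibroblasts, which define skin, were present in every library. The 8 keratinocyte markers summed to 3841 to 6451 FPKM in NC and 3407 to 6776 FPKM in the group labelled SFRP2-siRNA. The 7 fibroblast markers summed to 880 to 1942 and 2144 to 2247 FPKM. All 7 were higher at an unadjusted limma p under 0.05, against 6.72% of all genes, and their part in the level of Sfrp2 was not tested. Markers of other cells also differed between libraries. The 5 brown adipocyte markers summed to 1958, 1140 and 689 FPKM in NC and 445, 197 and 172 FPKM in the group labelled SFRP2-siRNA. The 8 adipocyte markers summed to 1059 to 1324 and 601 to 1452 FPKM, the 8 macrophage markers to 447 to 733 and 769 to 991 FPKM, and the 8 skeletal muscle markers to 3544 to 6705 and 4490 to 12664 FPKM. In bulk tissue, fewer cells of a type and less RNA per cell cannot be told apart.

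Wound tissue expressed most of the family. Of the 43 carriers tested, 18 had a mean of at least 10 FPKM, 17 lay between 2 and 10 FPKM and 8 between 0.5 and 2 FPKM, on 55 to 38222 reads per library. Levels were led by Slc25a5 and Slc25a4, the ADP/ATP carriers ANT2 and ANT1, with means over the 6 libraries of 302 and 195 FPKM. Ucp2 (96.3 FPKM), the citrate carrier Slc25a1 (95.2 FPKM) and the phosphate carrier Slc25a3 (76.1 FPKM) followed. The 5 highest carriers of each library made up 63.4% to 71.3% of the summed FPKM of all carriers. In NC 1 these included Slc25a39 (75.1 FPKM) in place of Slc25a3 (66.9 FPKM). The 6 carriers left untested were Slc25a18, Slc25a2, Slc25a31, Slc25a21, Slc25a41 and Slc25a54, none above 0.3665 FPKM in any library. Slc25a41 was listed at 0 in 4 libraries and had 0.0350 and 0.0319 FPKM in SFRP2-siRNA 1 and 3. Slc25a54 was also listed at 0 in 4 libraries and had 0.0255 FPKM in NC 1 and 0.0358 FPKM in SFRP2-siRNA 3.

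Several carriers of acylcarnitines, citrate, coenzyme A and NAD+ had lower levels in the group labelled SFRP2-siRNA. Of the 5 carriers with the highest means, Slc25a5, Slc25a4 and Slc25a3 had log2 fold changes between -0.06 and 0.22 with overlapping groups. The other members of these 5 were lower, Ucp2 at -0.39 with overlap and Slc25a1 at -0.94 without overlap. No carrier passed the threshold of the study (adjusted p under 0.05 with an absolute log2 fold change above 1), nor did any gene (0% of 16005), and the smallest adjusted p of limma was 0.518 for the carriers and for all genes. Voom on recovered reads also gave 0 carriers. The study itself reported genes past these limits in wound tissue at dpi4 with its count model, DESeq2, which was not run here. At an unadjusted p under 0.05 there were 10 of 43 carriers, against 9.58% of all genes tested, and voom gave 10 as well. Of these 10, 9 were lower (among them Slc25a1, Slc25a20, Slc25a23, Slc25a35, Slc25a42, Slc25a44, Slc25a51 and Ucp3), against 2.86% of all genes, and 1 was higher (Slc25a24), against 6.72%. The shares over all genes turned with the scaling: with median-of-ratios scaling they were 4.67% lower and 2.74% higher, against 12 and 1 of 43 carriers. The count was 6 without NC 1 (6 lower and 0 higher, against 2.66% and 2.84% of all genes). It was also 6 without SFRP2-siRNA 2 (5 lower and 1 higher, against 2.19% and 3.75%). Adding an absolute log2 fold change above 1 left 2 lower carriers, Slc25a35 among them (all genes 0.637%), and 0 higher (all genes 0.256%).

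The groups did not overlap in 8 lower carriers (among them Slc25a1, Slc25a20, Slc25a35, Slc25a39, Slc25a42, Slc25a44 and Slc25a51), against 3.92% of all genes, and in 4 higher ones (Slc25a24, Slc25a28, Slc25a40 and Slc25a45), against 13.9%. The exact permutation p of a gene without overlap is 0.1, the smallest that 3 against 3 libraries allow. This split depended on the scaling. With median-of-ratios scaling it was 14 lower and 1 higher, against 7.67% and 5.54% of all genes. After quantile normalization it was 10 and 1, against 6.37% and 6.12%. Equal sums that leave out the mitochondrially encoded genes gave 10 and 0, against 5.90% and 4.42%. Without NC 2, SFRP2-siRNA 1 or SFRP2-siRNA 2, 8 carriers were higher without overlap in the libraries that remained, against 25.9%, 23.7% and 21.2% of all genes. The log2 fold change was below 0 in 22 of 43 carriers, against 28.2% of all genes, and it was below the median of all genes in 29 of 43, against 50% by construction. The median was -0.02 over the carriers and 0.13 over all genes tested. Most differences were small: 29 of 43 carriers had an absolute log2 fold change under 0.3, and the range was -1.24 to 0.52.

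**Figure D1:**
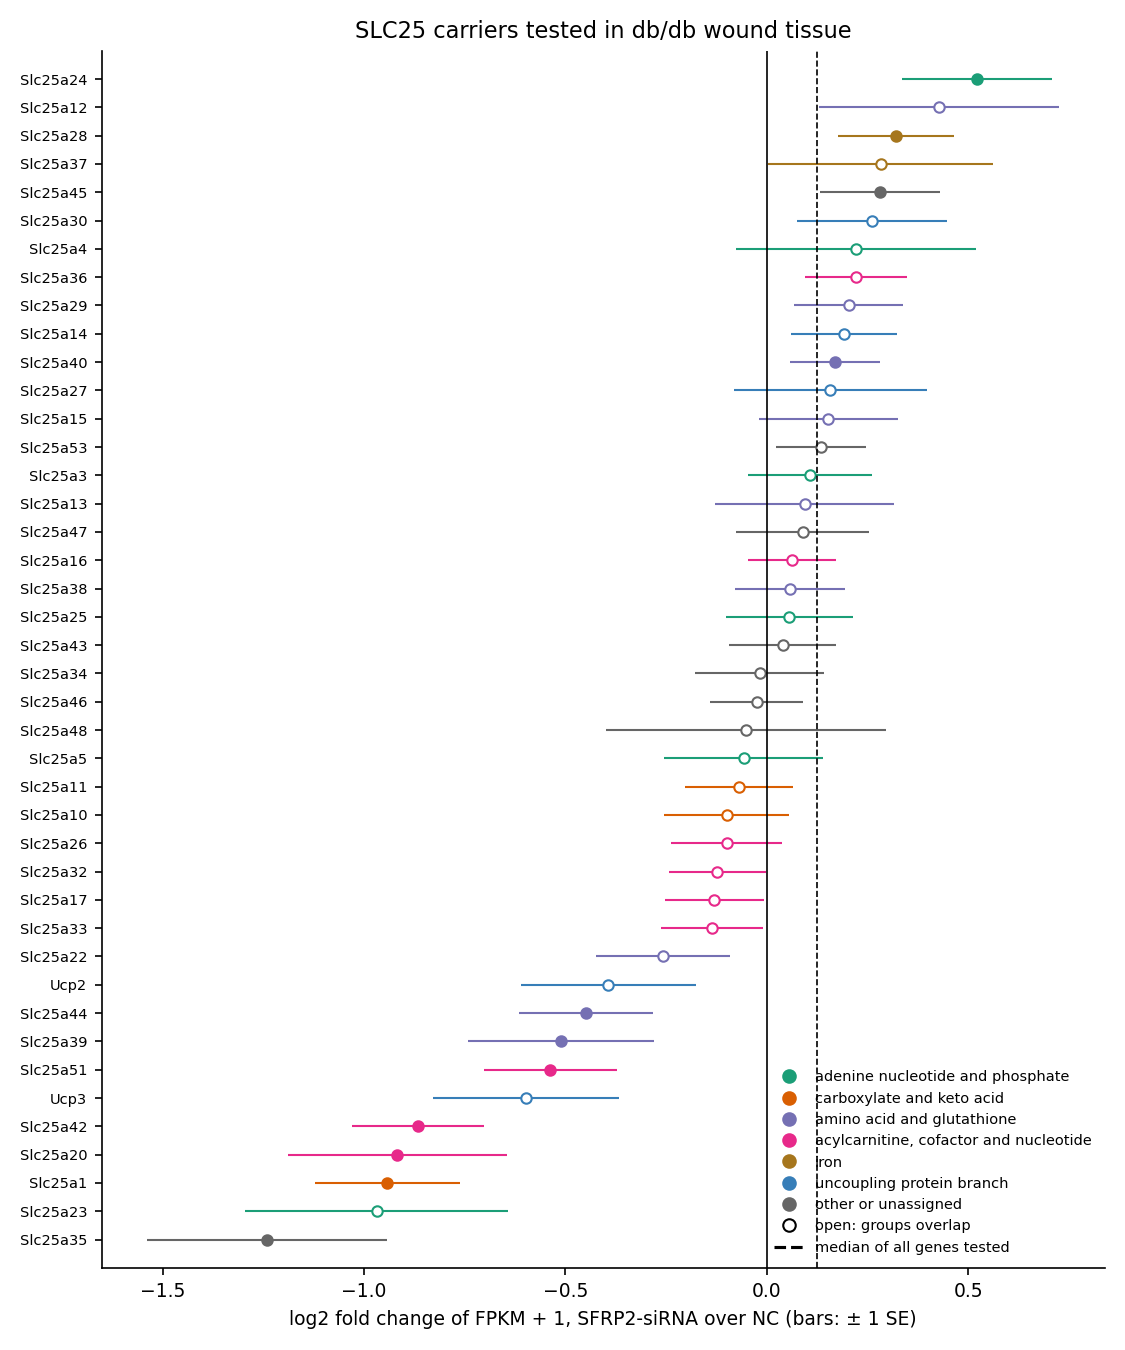
Log2 fold change of FPKM + 1 (horizontal axis, the group labelled SFRP2-siRNA over NC) for the carriers tested, 1 of them left out, coloured by role, with bars of 1 SE; filled points are carriers whose groups did not overlap, and the dashed line is the median of all genes tested. The lower tail, from Slc25a44 (-0.45) to Slc25a35 (-1.24), extends farther than the upper one, which ends at Slc25a24 (0.52).

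Carriers of fatty acyl groups, cofactors and nucleotides held the largest number of the lower members, and were also the role with the most carriers tested. Of the 10 carriers in this group all were tested, and 8 had a log2 fold change below 0, against 28.2% of all genes. At an unadjusted p under 0.05, 4 were lower, against 2.86% of all genes. All 4 were without overlap, where 3.92% of all genes were lower without overlap. The summed level of the 10 carriers was 160.0, 133 and 114 FPKM in NC and 105, 82.3 and 79.3 FPKM in the group labelled SFRP2-siRNA.

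Slc25a20, the carnitine-acylcarnitine carrier that brings fatty acyl groups to the matrix for oxidation, had 42.4, 27.4 and 22.9 FPKM in NC and 20.03, 14.6 and 12.4 FPKM in the group labelled SFRP2-siRNA. Every NC library was above every library of the other group, though NC 3 and SFRP2-siRNA 1 were close. Mean levels were 30.9 ± 10.2 and 15.6 ± 3.95 FPKM (SD, n = 3 each), for a log2 fold change of -0.92 (SE 0.27). Slc25a42, which imports coenzyme A, had 14.4, 11.999 and 10.2 FPKM and then 7.08, 6.08 and 5.49 FPKM. Its groups stood clear of each other, with means of 12.2 ± 2.12 and 6.21 ± 0.805 FPKM (SD, n = 3 each), and its log2 fold change was -0.87 (SE 0.16) with the smallest unadjusted limma p of the family, 0.00126.

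Slc25a51, an importer of NAD+, had 28.6, 29.4 and 22.3 FPKM in NC and 20.7, 16.9 and 16.6 FPKM in the group labelled SFRP2-siRNA. NC 1 and NC 2 were the high libraries, the groups did not overlap, and the log2 fold change was -0.54 (SE 0.16).

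The remaining 6 of this group had no unadjusted p under 0.05. The pyrimidine nucleotide carriers Slc25a33 and Slc25a36 had log2 fold changes of -0.14 and 0.22, the peroxisomal carrier Slc25a17 had -0.13, the folate carrier Slc25a32 had -0.12 and the S-adenosylmethionine carrier Slc25a26 had -0.10. Slc25a16 was at 0.06, with 6.53 to 7.07 FPKM in NC and 6.87 to 7.30 FPKM in the other group.

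**Figure D2:**
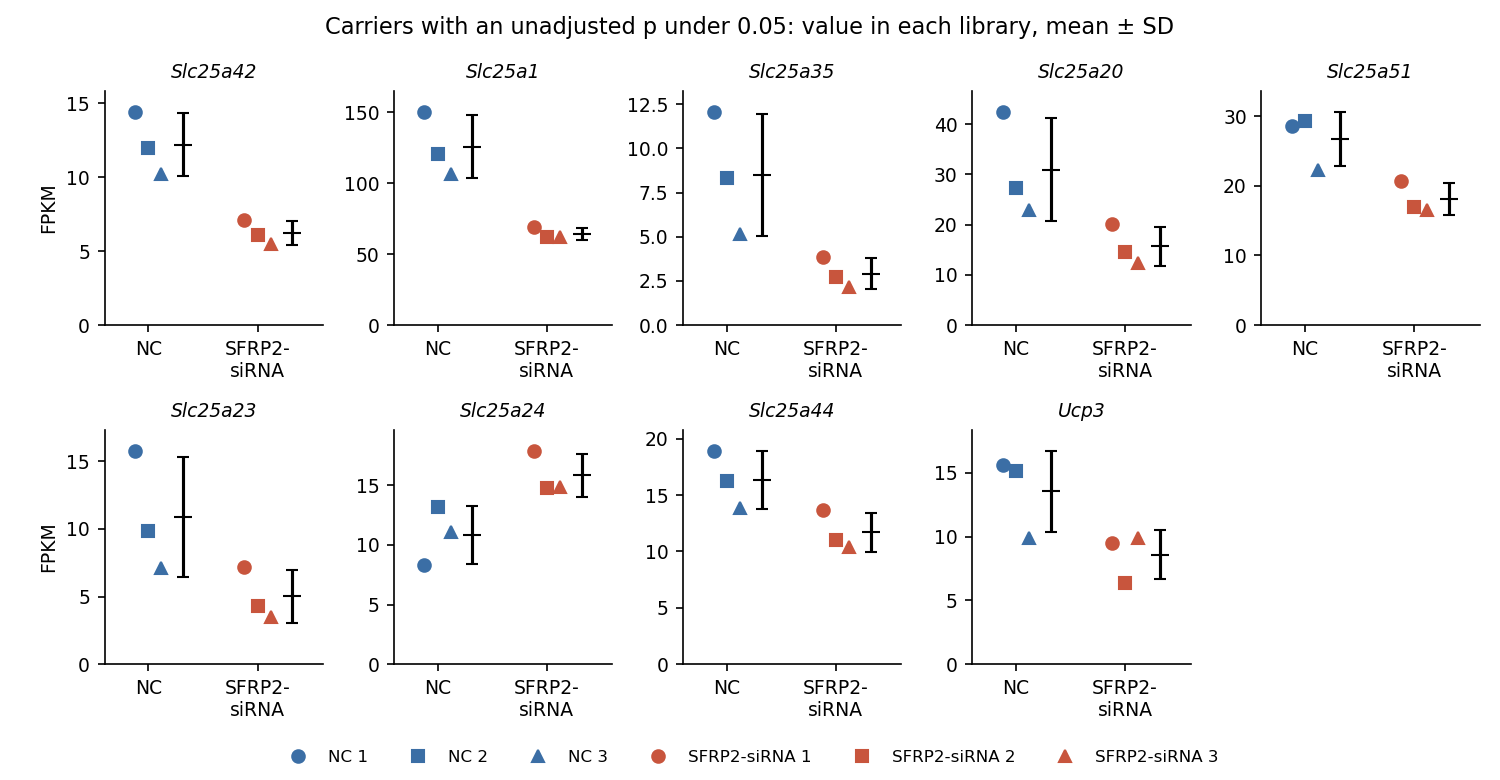
FPKM (vertical axis, from 0) in each library for 9 of the 10 carriers with an unadjusted p under 0.05; symbols mark the library number, and the bars to the right of each group are the mean and SD of 3 libraries. The groups overlap for Slc25a23 and Ucp3, and Slc25a24 is higher in the group labelled SFRP2-siRNA.

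Of the 3 carboxylate carriers tested, 1 was lower at an unadjusted p under 0.05, against 2.86% of all genes. Slc25a1 exports citrate from the matrix, the source of cytosolic acetyl-CoA for fatty acid and sterol synthesis. It had 150.3, 121 and 107 FPKM in NC 1, 2 and 3 and 69.5, 62.0 and 62.0 FPKM in SFRP2-siRNA 1, 2 and 3. The lowest NC library was far above the highest of the other group. Mean levels were 126 ± 22.4 and 64.5 ± 4.35 FPKM (SD, n = 3 each), for a log2 fold change of -0.94 (SE 0.18) with an unadjusted limma p of 0.00133. The oxoglutarate carrier Slc25a11 had 40.0, 38.5 and 41.5 FPKM and then 36.2, 36.2 and 42.0 FPKM. The dicarboxylate carrier Slc25a10 had 21.2, 19.4 and 25.5 FPKM and then 22.9, 19.7 and 18.7 FPKM. Both overlapped between groups, with log2 fold changes of -0.07 and -0.10. The oxodicarboxylate carrier Slc25a21 was untested, at most 0.0438 FPKM in a library. The summed level of these 4 carriers, most of it Slc25a1, was 212, 179 and 174 FPKM in NC and 129, 118 and 123 FPKM in the other group.

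The adenine nucleotide and phosphate carriers made up the largest summed level, 527 to 680 FPKM in NC and 545 to 694 FPKM in the group labelled SFRP2-siRNA. Slc25a5 had 291, 270.3 and 367 FPKM in NC and 295, 288 and 301 FPKM in the group labelled SFRP2-siRNA. NC 3 was the highest library and the rest lay together, with a log2 fold change of -0.06 (SE 0.20). That sign turned to 0.04 with equal sums and to 0.07 without NC 3. RefSeq lists a pseudogene copy of Slc25a5, and how reads that map to several places were counted was not given in the sources used here. Slc25a3, which imports phosphate for ATP synthesis, had 66.9, 72.2 and 80.8 FPKM and then 83.6, 71.5 and 81.9 FPKM, for a log2 fold change of 0.11 (SE 0.15).

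Slc25a4, the ADP/ATP carrier abundant in muscle, had 161, 159 and 211 FPKM in NC and 139, 214 and 289 FPKM in the group labelled SFRP2-siRNA. SFRP2-siRNA 3 was highest and SFRP2-siRNA 1 lowest, and the log2 fold change was 0.22 (SE 0.30), or -0.02 without SFRP2-siRNA 3. The 8 skeletal muscle markers summed to 3544, 5102 and 6705 FPKM in NC and 4490, 6860 and 12664 FPKM in the other group, also highest in SFRP2-siRNA 3. Their part in the level of Slc25a4 was not tested.

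The calcium-regulated carriers of ATP-Mg and phosphate went in different directions. Slc25a24 had 8.30, 13.1 and 11.1 FPKM in NC and 17.9, 14.7 and 14.9 FPKM in the group labelled SFRP2-siRNA. It was higher in all 3 of the latter, with means of 10.8 ± 2.43 and 15.8 ± 1.78 FPKM (SD, n = 3 each) and a log2 fold change of 0.52 (SE 0.19). Its unadjusted limma p, 0.0270, lay above 0.05 under 5 of 17 alternatives. The 7 fibroblast markers summed to 880, 1942 and 998 FPKM in NC and 2247, 2232 and 2144 FPKM in the other group, and the macrophage markers to 447, 733 and 464 FPKM and 991, 769 and 776 FPKM, both lowest in NC 1 like Slc25a24. Their part in this difference was not tested. Slc25a23 had 15.8, 9.86 and 7.07 FPKM and then 7.22, 4.30 and 3.50 FPKM, so NC 3 lay just under SFRP2-siRNA 1. Its log2 fold change was -0.97 (SE 0.33), and the exact permutation p was 0.2. Slc25a25 had 2.36 to 3.43 FPKM in NC and 2.62 to 3.47 FPKM in the other group, for a log2 fold change of 0.06. Slc25a31 and Slc25a41, also grouped with the adenine nucleotide and phosphate carriers, were untested.

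**Figure D3:**
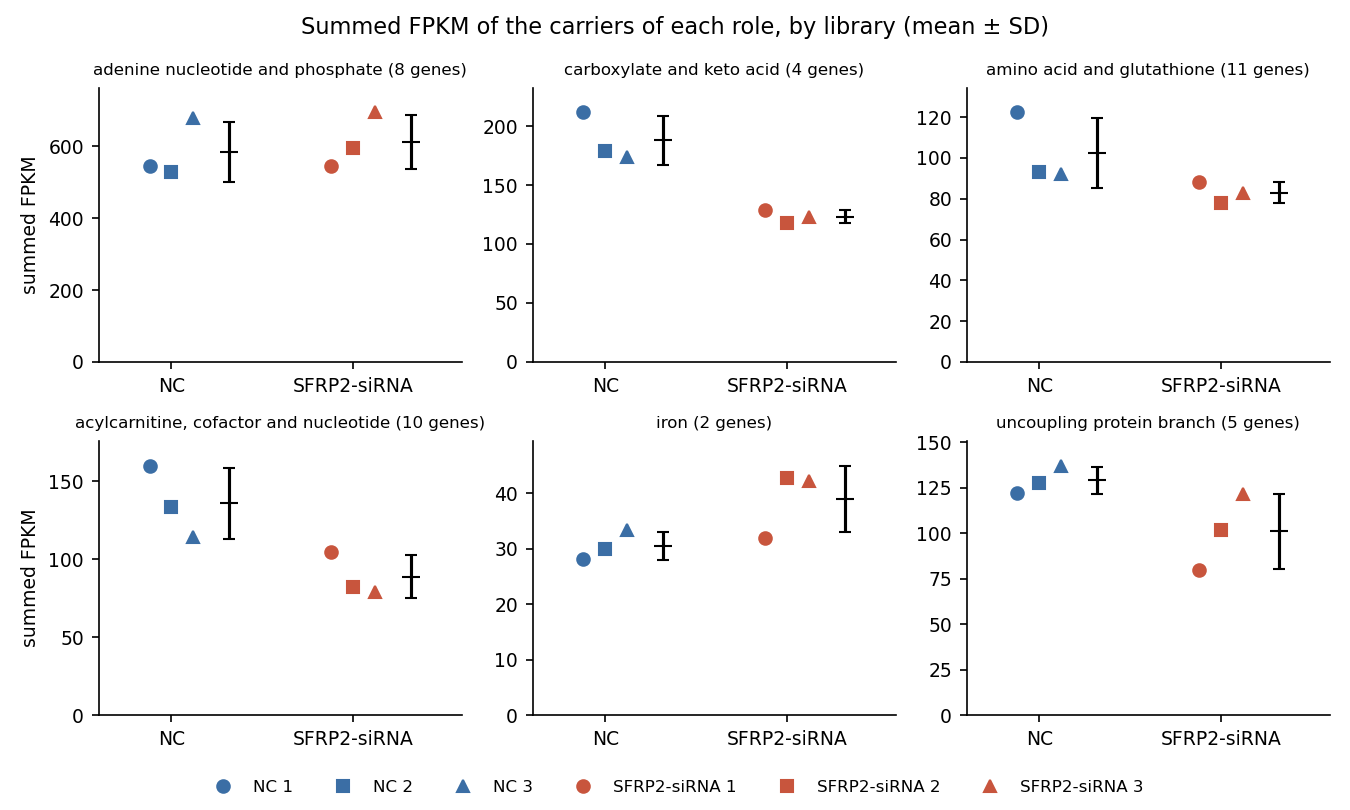
Summed FPKM (vertical axis, from 0) of the carriers of 6 roles in each library, with the number of genes in each panel title and the mean and SD of 3 libraries beside each group. The carboxylate sums (174 to 212 against 118 to 129) and the acylcarnitine, cofactor and nucleotide sums (114 to 160.0 against 79.3 to 105) do not overlap. Nor do the amino acid and glutathione sums (91.9 to 122 against 77.8 to 88.3) or the uncoupling branch sums (122.4 to 137 against 80.1 to 121.4). The adenine nucleotide and phosphate sums overlap, as do the iron sums.

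Of 9 amino acid and glutathione carriers tested, 1 was lower at an unadjusted p under 0.05, against 2.86% of all genes. Slc25a44, a carrier of branched-chain amino acids described in brown fat, had 18.9, 16.3 and 13.8 FPKM in NC and 13.6, 11.03 and 10.4 FPKM in the group labelled SFRP2-siRNA. NC 3 and SFRP2-siRNA 1 nearly met, and the log2 fold change was -0.45 (SE 0.17). Slc25a39, which imports glutathione, had 75.1, 47.8 and 45.3 FPKM and then 44.6, 34.9 and 35.2 FPKM. NC 1 was far above the others, and the groups were separated only by the small gap between NC 3 and SFRP2-siRNA 1. Its log2 fold change was -0.51 (SE 0.23) with an adjusted p of 0.52. Slc25a40, the paralogue of Slc25a39, was low and went the other way, with 1.06, 1.19 and 1.103 FPKM and then 1.58, 1.21 and 1.36 FPKM, for a log2 fold change of 0.17.

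Slc25a12 and Slc25a13 are the aspartate-glutamate carriers of the malate-aspartate shuttle. Slc25a12 had 4.83, 7.08 and 8.60 FPKM in NC and 6.28, 9.24 and 13.8 FPKM in the group labelled SFRP2-siRNA, highest in SFRP2-siRNA 3, and its log2 fold change was 0.43 (SE 0.30), or 0.17 without SFRP2-siRNA 3 and 0.68 without SFRP2-siRNA 1. Slc25a13 had 1.99, 2.99 and 4.04 FPKM and then 2.52, 3.88 and 3.26 FPKM. Its log2 fold change of 0.09 turned to -0.02 with median-of-ratios scaling, -0.01 after quantile normalization, -0.10 without NC 1 and -0.02 without SFRP2-siRNA 2. Slc25a22, a glutamate carrier, had 7.19 to 10.2 FPKM in NC and 6.44 to 8.30 FPKM in the other group, for a log2 fold change of -0.26. Slc25a15, the ornithine carrier, Slc25a29, a carrier of basic amino acids, and Slc25a38, the glycine carrier, had log2 fold changes of 0.15, 0.20 and 0.06.

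Both mitoferrins, which bring iron to the matrix for haem and iron-sulphur clusters, had log2 fold changes above 0. Over all genes, 28.2% were below 0. Slc25a28 (mitoferrin 2) had 12.2, 10.7 and 12.03 FPKM in NC and 17.4, 13.6 and 13.7 FPKM in the group labelled SFRP2-siRNA. The groups did not overlap, and the log2 fold change was 0.32 (SE 0.14) with an adjusted p of 0.52. Slc25a37 (mitoferrin 1), known for its role in red cell precursors, had 16.0, 19.3 and 21.3 FPKM and then 14.6, 29.1 and 28.5 FPKM. SFRP2-siRNA 1 was its lowest library. The 8 erythroid markers, mostly globins, summed to 2385, 1427 and 2026 FPKM in NC and 3387, 2232 and 2125 FPKM in the other group, and their part in the level of Slc25a37 was not tested.

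In the uncoupling branch, Ucp2, an abundant member in immune cells, had 101, 105 and 119 FPKM in NC and 62.3, 87.3 and 102 FPKM in the group labelled SFRP2-siRNA. SFRP2-siRNA 3 lay just above NC 1, and the log2 fold change was -0.39 (SE 0.22, adjusted p = 0.54). Ucp3, known from skeletal muscle and brown fat, had 15.6, 15.1 and 9.90 FPKM and then 9.46, 6.39 and 9.90 FPKM. NC 3 and SFRP2-siRNA 3 met, so the groups overlapped, and the log2 fold change was -0.60 (SE 0.23) with an exact permutation p of 0.2. Slc25a14, Slc25a27 and Slc25a30 had log2 fold changes of 0.19, 0.16 and 0.26, all with overlap.

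Among the 8 other carriers tested, Slc25a35, whose substrate is not established, had the lowest log2 fold change of the family. It had 12.1, 8.31 and 5.18 FPKM in NC and 3.87, 2.73 and 2.14 FPKM in the group labelled SFRP2-siRNA. The groups did not overlap, its mean levels were 8.52 ± 3.45 and 2.91 ± 0.882 FPKM (SD, n = 3 each), and the log2 fold change was -1.24 (SE 0.30). Its close relative Slc25a34 was lower in level and had a log2 fold change of -0.02. Slc25a45 had 5.60, 7.97 and 7.25 FPKM and then 8.18, 8.52 and 9.02 FPKM, for a log2 fold change of 0.28 without overlap. Slc25a46, which acts on mitochondrial shape, had 9.78 to 11.1 FPKM in NC and 9.87 to 10.5 FPKM in the other group. Its log2 fold change was -0.03, or 0.06 with equal sums and 0.02 without NC 3. Slc25a43, Slc25a47, Slc25a48 and Slc25a53 lay between -0.05 and 0.13, with Slc25a48 the most variable at 3.30 to 10.3 FPKM in the group labelled SFRP2-siRNA.

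Several lower carriers ranked the libraries as Ucp1 did. Ucp1 had 1061, 615 and 314 FPKM in NC 1, 2 and 3 and 157, 39.9 and 19.1 FPKM in SFRP2-siRNA 1, 2 and 3, for a log2 fold change of -3.55 (SE 0.79, adjusted p = 0.518). The order of the 6 libraries was the same in 5 of 43 carriers, among them Slc25a20, Slc25a35, Slc25a42 and Slc25a44, against 0.725% of all genes tested. Slc25a1, Slc25a23, Slc25a51 and Ucp3, also lower at an unadjusted limma p under 0.05, did not share that order. The comparison with Ucp1 was chosen after the values had been seen, and the order includes the separation of the groups. Of the 5 brown adipocyte markers, Ucp1, Cidea and Cox8b were also lower without overlap, against 3.92% of all genes. Dio2 and Elovl3 (a gene also on the sebocyte list) overlapped, and none of the 5 was at 0 in any library. Within NC, where the siRNA label does not differ, Slc25a20 ranged from 22.9 to 42.4 FPKM and Slc25a35 from 5.18 to 12.1 FPKM, while Ucp1 ranged from 314 to 1061 FPKM. The part of brown adipocyte RNA in the lower carriers was not tested. Of the 8 general adipocyte markers, 7 had a log2 fold change below 0, against 28.2% of all genes, and all 8 overlapped between groups. Lipe, hormone-sensitive lipase, had the lowest at -1.02 with an unadjusted limma p of 0.0379, followed by Pnpla2 at -0.97 and Plin1 at -0.86, while Adipoq was at -0.24. Their part in the lower carriers was not tested either.

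**Figure D4:**
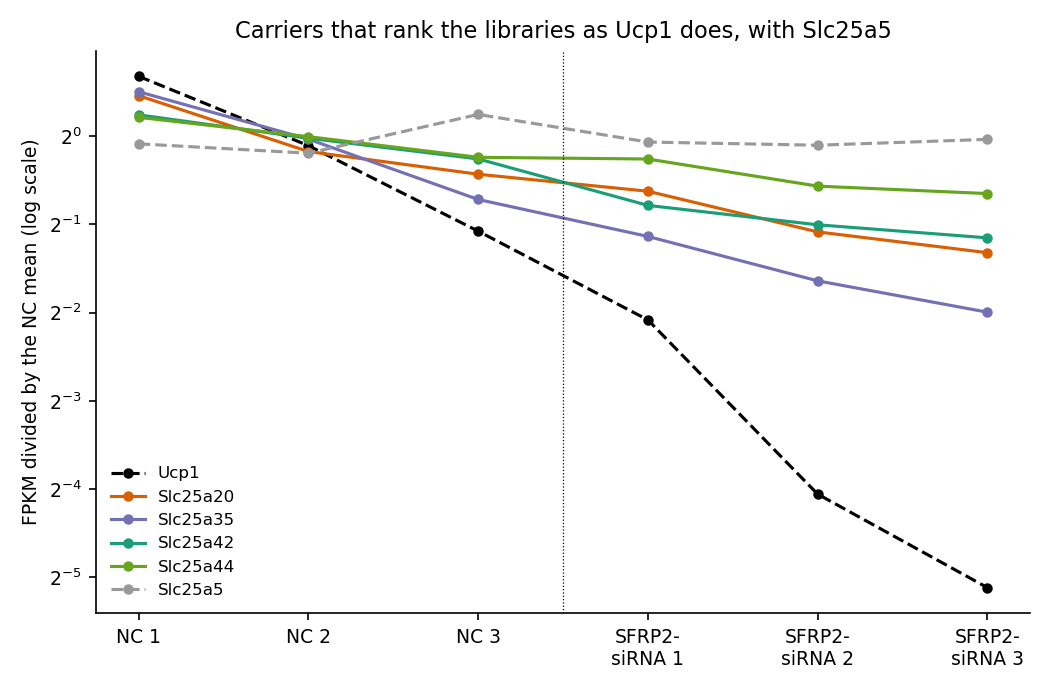
FPKM of each gene divided by its NC mean (vertical axis, log scale) in the 6 libraries, for Ucp1 (black, dashed), 4 of the 5 carriers with the same library order and Slc25a5 (grey, dashed); lines join the values of 1 gene, and library numbers have no order of their own. Ucp1 spans 1061 to 19.1 FPKM, Slc25a44 only 18.9 to 10.4 FPKM, and Slc25a5 does not share the order.

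Shares within pairs of related carriers were compared because they do not depend on the scaling of a library. Slc25a4 was 35.6%, 37.0% and 36.5% of Slc25a4 and Slc25a5 together in NC, and 31.99%, 42.6% and 48.9% in the group labelled SFRP2-siRNA. The NC libraries lay together and the others spread to both sides, with means of 36.4 ± 0.685% and 41.2 ± 8.56% (SD, n = 3 each; exact permutation p = 0.4, adjusted over the 4 pairs 0.8). The difference of 4.81 percentage points was 9.40 without SFRP2-siRNA 1 and 0.933 without SFRP2-siRNA 3. Slc25a12 was 70.8%, 70.3% and 68.0% of Slc25a12 and Slc25a13, and then 71.4%, 70.4% and 80.8% (exact permutation p = 0.2, adjusted 0.8), and the difference of 4.50 points was 1.19 without SFRP2-siRNA 3. The high value was again SFRP2-siRNA 3, the library with the most skeletal muscle marker RNA, whose part was not tested.

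Slc25a28 was 43.3%, 35.8% and 36.1% of the mitoferrin pair in NC and 54.4%, 31.8% and 32.4% in the group labelled SFRP2-siRNA (exact permutation p = 1). SFRP2-siRNA 1 was apart from its group, and without it the difference of means, 1.17 percentage points, became -6.27. Ucp3 was 13.3%, 12.6% and 7.66% of Ucp2 and Ucp3, and then 13.2%, 6.82% and 8.83% (exact permutation p = 0.6, adjusted 0.8), a difference of -1.58 points that ranged from -3.37 to -0.184 when 1 library was left out. The smallest exact p that 3 against 3 libraries allow is 0.1, so no share could have passed.

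**Figure D5:**
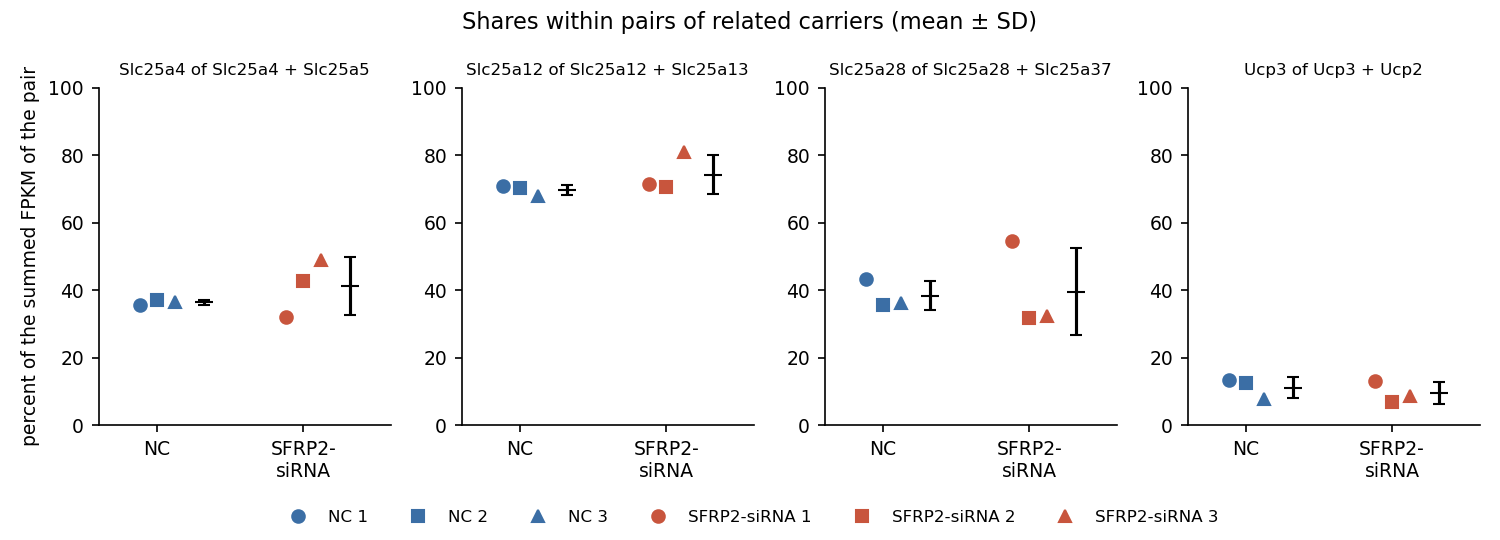
Share of the first gene in the summed FPKM of each pair (vertical axis, percent, 0 to 100) in each library, with the mean and SD of 3 libraries beside each group. The groups overlap in all 4 pairs, and the group labelled SFRP2-siRNA spreads more widely for Slc25a4 (31.99% to 48.9%) than NC (35.6% to 37.0%).

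Other transport genes of mitochondria were examined beside the family. Both subunits of the pyruvate carrier, which lies outside SLC25, had an unadjusted p under 0.05 and were lower without overlap. Over all genes, 2.86% were lower at that limit and 3.92% were lower without overlap. Mpc1 had 17.0, 10.3 and 9.05 FPKM in NC and 5.94, 4.50 and 5.65 FPKM in the group labelled SFRP2-siRNA, for a log2 fold change of -1.003 (SE 0.24). Mpc2 had 12.7, 8.32 and 7.70 FPKM and then 6.13, 4.48 and 5.38 FPKM, for a log2 fold change of -0.72 (SE 0.21). NC 1 was the highest library for both, and neither passed the adjusted threshold (adjusted p = 0.518 each).

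The outer membrane channels pass solutes on to the carriers, and the import machinery inserts the carriers themselves. Of the 3 outer membrane channels, 0 had an unadjusted p under 0.05, against 9.58% of all genes. Vdac1 was at 0.11 and Vdac3 at 0.14 on the log2 scale (-0.04 and -0.01 with median-of-ratios scaling). Of the 10 genes that import carriers into the inner membrane, 0 had an unadjusted p under 0.05, against the same 9.58%. The small chaperone Timm10 had 24.3, 21.8 and 24.9 FPKM in NC and 19.5, 19.6 and 19.9 FPKM in the other group, for a log2 fold change of -0.25 without overlap. Timm10b, low at 0.828 to 1.04 FPKM, had a log2 fold change of 0.11, also without overlap.

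Of 8 calcium uniporter and exchange genes, 1 was lower and 1 higher at an unadjusted p under 0.05, against 2.86% and 6.72% of all genes. Letm1, a cation-proton exchange protein of the inner membrane, had 17.2, 13.5 and 13.6 FPKM in NC and 9.95, 8.56 and 8.64 FPKM in the group labelled SFRP2-siRNA, for a log2 fold change of -0.64 (SE 0.14). Mcub, the inhibitory paralogue of the uniporter pore, had 7.22, 12.7 and 7.38 FPKM and then 18.2, 14.1 and 14.8 FPKM, for a log2 fold change of 0.76 (SE 0.23). Neither gene overlapped between groups.

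Of 5 sideroflexins, 1 was higher at an unadjusted p under 0.05, against 6.72% of all genes. Sfxn3 had 17.8, 15.8 and 16.3 FPKM in NC and 21.2, 19.3 and 21.6 FPKM in the other group, for a log2 fold change of 0.30 (SE 0.12), while the serine carrier Sfxn1 had -0.20. Of 3 mitochondrial ABC transporters tested, 1 was lower at that limit, against 2.86% of all genes. Abcb8 had 13.1, 14.7 and 13.6 FPKM and then 10.8, 10.1 and 9.53 FPKM, for a log2 fold change of -0.41 (SE 0.12). Mtch2, a carrier homologue of the outer membrane, had 20.9, 17.6 and 17.9 FPKM and then 16.9, 12.8 and 13.7 FPKM, for a log2 fold change of -0.36 (SE 0.15, adjusted p = 0.518).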

How the data were processed

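The authors deposited 1 table of FPKM values for 33184 Ensembl gene IDs. HISAT2, Subread and featureCounts are named in the submitters' processing notes, and versions, genome build and annotation were not given in the sources used here. Symbols came from a gene name table that matched 32582 IDs. Groups were taken from the sample titles.

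FPKM values were analysed as log2(FPKM + 1), which understates the change of low genes, and genes averaging 0.5 FPKM or more over all libraries were tested. Groups were compared with limma 3.58.1 in R 4.3.3 (lmFit, eBayes with an intensity trend, two-sided), with Benjamini-Hochberg adjustment over all 16005 genes. The study states a count model with the same thresholds, which needs counts rather than FPKM values. That model was not run here on the reads recovered from the FPKM values. For single values, an exact permutation test (two-sided) over libraries was added. Low FPKM values were whole multiples of 1 read, and gene lengths gave whole reads (within 0.05 of a read) for 96.5% of genes and 48 of 49 carriers. This gave the depth and the reads for voom. Of values of 1 to 20 reads, 64.6% were even, so mates were counted singly and reads are not independent. Methods were tested on simulated data with noise drawn separately for each gene, so differences between libraries that many genes share were not covered. No pair of libraries was identical.

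Values in every library are given for Sfrp2, the highest carrier of each role, the 12 carriers with the smallest p, the 4 pairs and the 2 genes with the smallest p of each partner list. Other genes given by library (Slc25a10, Slc25a11, Slc25a3, Slc25a40 and Slc25a45) were added after their values were seen. One carrier and 1 partner gene that this rule names are not reported here, though counts and sums include them. The members, roles and lists were chosen with earlier results of these data known. Alternatives covered another pseudocount (0.1), other filters (none, 2 FPKM), 4 scalings, no intensity trend, a replicate block, sample weights, voom and leaving out each library.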

Additional observations from a re-analysis of the deposited data

How the results depend on the processing

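No carrier passed the adjusted threshold under any of 17 alternatives, and the smallest adjusted p of a carrier ranged from 0.126 (sample weights) to 0.845 (without NC 1). The 9 carriers lower at an unadjusted p under 0.05 were lower in every fit, and 5 of them (among them Slc25a42, Slc25a1, Slc25a35 and Slc25a20) kept an unadjusted p under 0.05 in every fit. The count at that limit was 2 with an absolute log2 fold change above 1 as well. Leaving out 1 library at a time gave 6 to 12 carriers, 5 to 10 lower (5 without SFRP2-siRNA 2) and 0 to 2 higher. Over all genes the shares in these fits were 1.91% to 3.64% lower and 2.84% to 9.83% higher. The higher count was 2 with no filter (all genes 4.6%), 0 with equal sums without mitochondrially encoded genes (2.48%) and 2 with sample weights (8.85%).

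Carriers without overlap numbered 15 to 20 when 1 library was left out (20 without SFRP2-siRNA 1), which makes separation easier. Of these carriers, 8 to 12 were lower (all genes 5.5% to 7.95%) and 4 to 8 higher (all genes 15.8% to 29%). Lower ones were 14 with median-of-ratios scaling. Higher ones were 0 with equal sums without mitochondrially encoded genes, 1 with median-of-ratios scaling and 1 with quantile normalization. Over all genes, scaling moved the median log2 fold change from 0.13 to 0.20 (equal sums), 0.04 (equal sums without mitochondrially encoded genes), 0.03 (quantile) and 0.005 (median of ratios). The carriers' median stayed 0.01 to 0.19 below it in every fit.

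The log2 fold change of Sfrp2 ranged from 1.12 to 1.98. The Slc25a28 share differed by -6.27 to 5.02 points when 1 library was left out, with -0.142 without NC 2. In 560 refits of the 33 named genes besides Sfrp2, direction and side were kept in 549, 11 reversed, in 6 genes, and 0 passed the threshold. Slc25a5 became 0.0378 with equal sums and ranged from -0.148 to 0.0712 without 1 library (0.0712 without NC 3). Slc25a46 became 0.0609 with equal sums and ranged from -0.0617 to 0.0217 (0.0217 without NC 3). Slc25a4 ranged from -0.0249 (without SFRP2-siRNA 3) to 0.501. Slc25a13 became -0.0195 with median-of-ratios scaling and -0.00744 with quantile normalization, and ranged from -0.100 to 0.276 (below 0 without NC 1 or SFRP2-siRNA 2). Vdac3 and Vdac1 became -0.0113 and -0.0436 with median-of-ratios scaling. The cause was not tested.

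The labels do not say whether replicate numbers pair the libraries. Deviations of same-numbered libraries correlated at -0.047, -0.151 and 0.38, which cannot decide this with 3 libraries a group. With the replicate block, 10 carriers had an unadjusted p under 0.05, 9 lower and 1 higher, against 4.21% and 7.84% of all genes. They were not the same carriers: Slc25a24 and Ucp3 were no longer under that limit, and Slc25a12 (higher) and Slc25a39 (lower) now were. The smallest adjusted p of a carrier was 0.193. With 3 libraries a group, small differences were not detectable. Large ones did not pass either: Ucp1, at a log2 fold change of -3.55, had an adjusted limma p of 0.518.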
